A study of Mus musculus with 18 samples.

Results

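The genes described here encode mouse MHC class I molecules: the classical heavy chains H2-K1 and H2-D1, the Q region heavy chains H2-Q4, H2-Q6 and H2-Q7, the T region heavy chains H2-T22 and H2-T23, and the light chain B2m. They are 8 of the 33440 genes quantified, and all 8 passed the filter on low counts in both experiments. They were listed by gene symbol and not by a measured value, though the list was chosen with earlier results of these data known.

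RNA-seq libraries of 2 experiments on C57BL/6 mice were used, with the interferon regulatory factor IRF3 activated in one and deleted in the other. In the first, adipocytes were differentiated in culture from the stromal-vascular fraction (SVF) of inguinal white fat of IRF3-2D mice, whose constitutively active IRF3 allele is silent until Cre recombines it. The virus AAV-GFP was given to 3 cultures (WT) and AAV-GFP-Cre to another 3 (FI3OE), so the unrecombined allele and viral GFP were present in WT too, and the presence of Cre and that of active IRF3 cannot be told apart. In the second, RNA on tagged ribosomes of adipocytes was pulled down with an anti-GFP antibody (translating ribosome affinity purification, TRAP) from epididymal fat of WT mice (6 libraries) and of FI3KO mice (6 libraries), which lack Irf3 in cells that express Adipoq-Cre. All TRAP mice had been fed a high-fat diet for 8 weeks at thermoneutrality. The labels call the libraries biological replicates without saying which cultures or animals they came from, so p-values measure the spread between these libraries, which may be technical.

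MHC class I molecules carry peptides from inside the cell to its surface, where CD8 T cells and NK cells read them. A heavy chain folds with the light chain B2m and a peptide. The peptide has been cut by a proteasome, such as the immunoproteasome, and moved into the endoplasmic reticulum by the TAP transporter. Interferons raise the transcription of these genes through an interferon-stimulated response element (ISRE) next to a kappaB site, and the activator NLRC5 acts on neighbouring promoter boxes. Adipocytes, like nearly all nucleated cells, carry class I molecules.

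On chromosome 17 of GRCm38, in the GENCODE annotation, H2-K1 (ENSMUSG00000061232) lies at chr17:33996017-34000347 on the minus strand and H2-D1 (ENSMUSG00000073411) at chr17:35262730-35267499 on the plus strand. The Q region genes follow on the plus strand, with H2-Q4 (ENSMUSG00000035929) at chr17:35379617-35385290, H2-Q6 (ENSMUSG00000073409) at chr17:35424850-35430055 and H2-Q7 (ENSMUSG00000060550) at chr17:35439155-35443773. H2-T23 (ENSMUSG00000067212) at chr17:36029773-36032855 and H2-T22 (ENSMUSG00000056116) at chr17:36037128-36042747 lie on the minus strand. B2m (ENSMUSG00000060802) is outside the MHC, at chr2:122147686-122153083 on the plus strand.

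The promoters of all 8 genes were found in the RefSeq promoter table (GRCm38.p6), which holds 250 bases before and 50 bases after each RefSeq start site. These starts differ from the GENCODE gene ends given above, so that the stretch shown for H2-D1 lies within the GENCODE span of the gene and most of that for H2-T23 does too. A stretch of 60 bases of each is shown because the interferon-response letters fall in it and can be compared between genes. Each is written 5′ to 3′ on the strand of the gene, with matches to an ISRE core or a kappaB motif in capitals.
H2-K1: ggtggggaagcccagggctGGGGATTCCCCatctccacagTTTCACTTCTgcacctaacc
H2-D1: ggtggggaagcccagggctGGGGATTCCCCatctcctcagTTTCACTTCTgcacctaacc
H2-Q4: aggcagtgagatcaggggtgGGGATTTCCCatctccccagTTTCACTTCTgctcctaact
H2-Q6: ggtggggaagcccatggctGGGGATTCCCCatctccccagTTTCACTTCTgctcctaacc
H2-Q7: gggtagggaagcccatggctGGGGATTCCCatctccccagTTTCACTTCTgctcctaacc
H2-T22: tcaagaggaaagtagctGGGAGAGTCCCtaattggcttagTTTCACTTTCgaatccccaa
H2-T23: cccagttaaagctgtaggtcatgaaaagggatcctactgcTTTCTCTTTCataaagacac
B2m: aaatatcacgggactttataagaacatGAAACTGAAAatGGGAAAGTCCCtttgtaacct

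These stretches are at chr17:34000418-34000477 (minus strand) for H2-K1, chr17:35262904-35262963 (plus) for H2-D1, chr17:35379424-35379483 (plus) for H2-Q4, chr17:35424658-35424717 (plus) for H2-Q6 and chr17:35439002-35439061 (plus) for H2-Q7. Those of the T region are at chr17:36042914-36042973 (minus) for H2-T22 and chr17:36032806-36032865 (minus) for H2-T23, and that of B2m is at chr2:122147521-122147580 (plus). The motifs were searched on both strands of the 300 bases as TTTCNNTTTC (reverse GAAANNGAAA), TTTCNNTTCT (reverse AGAANNGAAA), GGGANNNNCC for kappaB (reverse GGNNNNTCCC) and CCAAT (reverse ATTGG), and the second of these was written after the promoters of the classical genes had been read. TTTCNNTTCT was present in H2-K1, H2-D1, H2-Q4, H2-Q6 and H2-Q7 and in 3.02% of all 32851 promoters. TTTCNNTTTC was present in H2-T22, H2-T23 and, on the reverse strand, B2m, and in 3.44% of all promoters. The classical and Q region genes thus shared an identical ISRE match, H2-T22 and H2-T23 each had their own, and B2m had the kappaB letters downstream of the ISRE core and not upstream. The kappaB motif was found in 7 of the 8 promoters, not in that of H2-T23, and in 20.7% of all promoters, while CCAAT was found in all 8 and in 37.4%. A match is a description of these letters and not evidence of a factor bound there.

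Before the comparisons, the libraries were examined once. Their totals were between 21541334 and 36932452 reads for SVF-derived adipocytes and between 25259869 and 40490283 for TRAP. Irf3 itself was at 56.8 to 58.6 CPM (gene counts scaled to a common library total) in WT and 90.8 to 100.3 CPM in FI3OE cultures. In TRAP it was at 17.2 to 23.2 CPM in WT and 12.4 to 18.8 CPM in FI3KO, which overlap. A coding transcript of 1429 bases, with 40.4% of the gene's reads in WT TRAP, had 164 to 388 estimated reads in every WT library. It had 0 in all 6 FI3KO libraries. Other coding transcripts had more reads in FI3KO than in WT. Their means were 141 against 3.41 (369 bases), 110 against 65.5 (1712 bases) and 63.9 against 28.2 (2031 bases). Fitted on coding transcripts alone, Irf3 had a log2 fold change of -0.09 in FI3KO TRAP (adjusted p = 0.696 by the quasi-likelihood test of edgeR). Summed adipocyte marker genes reached at least 12019 CPM in every SVF library and at least 35034 CPM in every TRAP library. Summed macrophage marker genes (16 genes) were at 2540 to 2710 CPM in WT and 2489 to 2520 CPM in FI3OE cultures, and at 15.1 to 99.5 CPM in TRAP. Summed T and NK cell markers did not exceed 1.72 CPM in any library and B cell markers did not exceed 0.950 CPM.

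The first comparison asked what active IRF3 does to class I expression in cultured adipocytes. All 8 genes rose in FI3OE, and for each of them every FI3OE library was above every WT library. The rise was largest for the Q region genes H2-Q6 and H2-Q7, at 3.97-fold and 3.20-fold, intermediate for H2-T22, H2-Q4 and H2-T23, and smallest for H2-K1, B2m and H2-D1, the genes with most transcript. By adjusted p (at most 0.05, by the quasi-likelihood test of edgeR, adjusted by Benjamini-Hochberg over 16105 genes), 8 of 8 members were higher, against 20.2% of all genes tested. With a log2 fold change of at least 1 as well, 6 of 8 were higher, against 1.99% of all genes. Separation of the 3 WT from the 3 FI3OE libraries was seen upward in 8 of 8 members and in 24.1% of all genes. The median log2 fold change of the members was 1.31, beside -0.00 over all genes tested. In RNA from whole cultures, more cells of a type and more RNA per cell cannot be told apart.

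**Figure D1:**
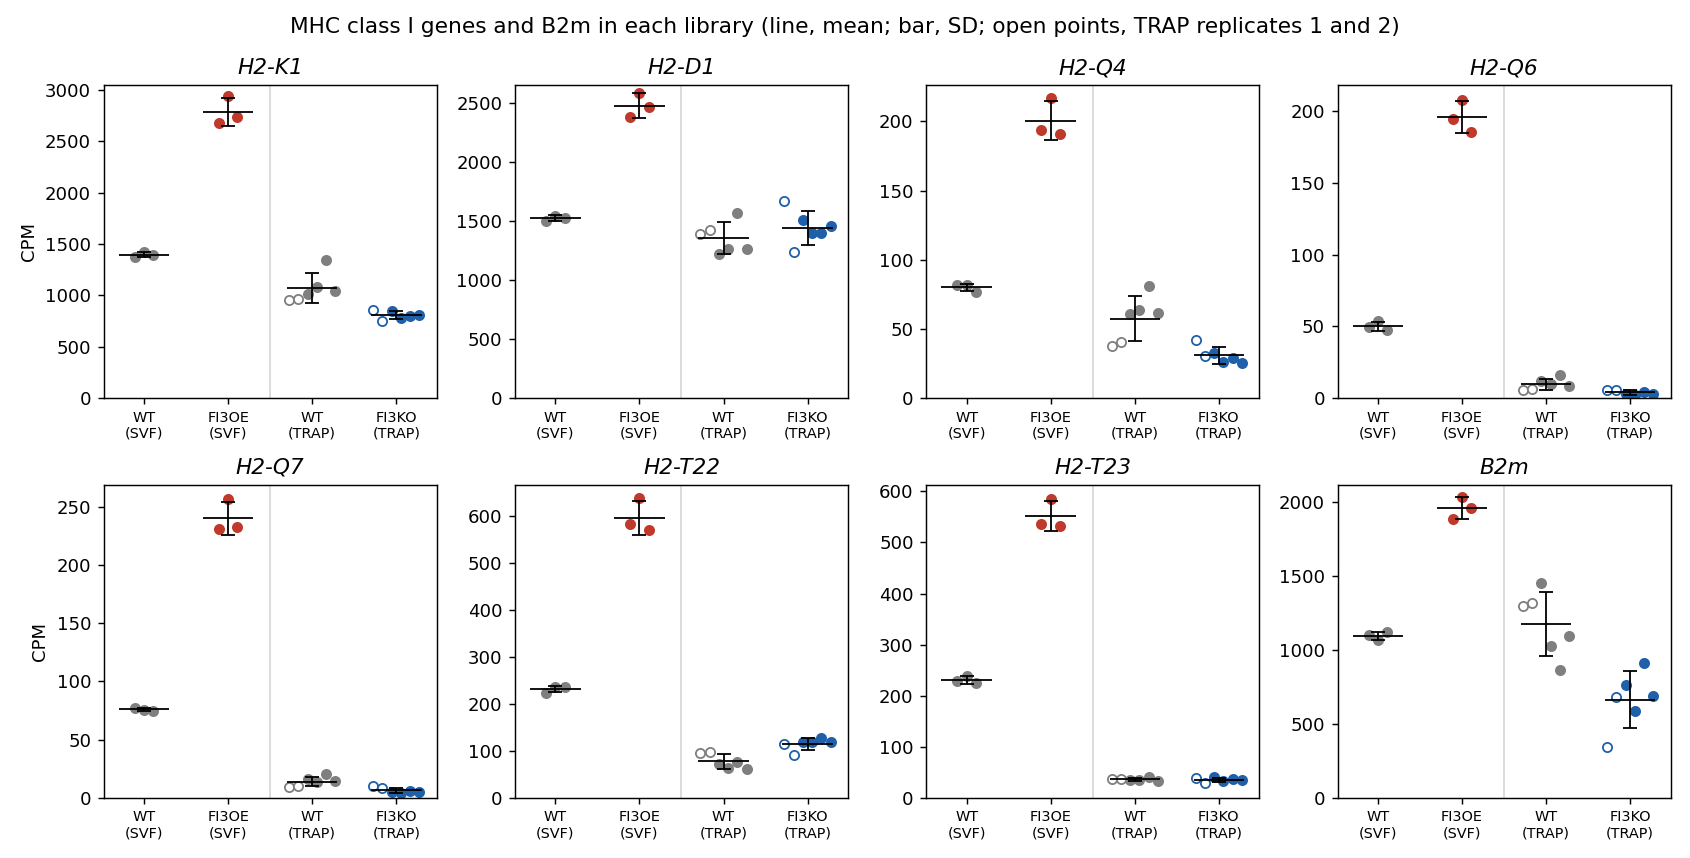
CPM of the 8 class I genes in each library, on linear axes from 0, with a point for each library (open for TRAP replicates 1 and 2), a line for the group mean and a bar of 1 SD, for WT and FI3OE SVF-derived adipocytes (3 each) and WT and FI3KO TRAP (6 each). All 8 genes are higher in every FI3OE library than in any WT library, while in TRAP the groups separate for H2-K1 and overlap for the other 7.

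Among the classical heavy chains, which present peptide to CD8 T cells, H2-K1 was at 1377, 1422 and 1390.25 CPM in WT libraries 1 to 3 and at 2677, 2939.7 and 2741 CPM in FI3OE libraries 1 to 3. The WT libraries lay close together and the lowest FI3OE library was far above them. The log2 fold change was 1.01 (SE 0.041, adjusted p = 9.62e-09 in edgeR's test). That value sits at the fold-change cutoff, and it was 0.96 without FI3OE replicate 2 and 0.97 with an offset for transcript length. H2-D1 was at 1499, 1546 and 1528 CPM in WT and at 2377, 2584 and 2469 CPM in FI3OE. It too was higher in every FI3OE library, by a log2 fold change of 0.72 (SE 0.038, adjusted p = 7.52e-08 in the same test), the smallest of the members.

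The Q region heavy chains are non-classical and include the Qa-2 family, to which H2-Q6 and H2-Q7 belong. H2-Q6 was at 49.4, 53.4 and 47.2 CPM in WT and at 195, 208 and 186 CPM in FI3OE, a log2 fold change of 1.99 (SE 0.057, adjusted p = 1.08e-09 in edgeR's test). H2-Q7 was at 77.1, 75.8 and 74.5 CPM in WT and at 231, 256 and 233 CPM in FI3OE, a log2 fold change of 1.68 (SE 0.049, adjusted p = 1.13e-09). These were the highest fold changes among the members, from low WT levels. H2-Q4 was at 81.5, 81.6 and 76.9 CPM in WT and at 194, 217 and 191 CPM in FI3OE, and its log2 fold change was 1.34 (SE 0.054, adjusted p = 1.02e-08).

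Values of single class I genes, above all H2-Q4 and H2-Q6, depend on how reads were divided between near-identical transcripts. Of the 31-base words in coding transcripts, 57.9% in H2-Q4, 49.2% in H2-Q6 and 33.1% in H2-Q7 were also present in another gene quantified, as against 20.2% in H2-K1, 27.4% in H2-D1, 31.8% in H2-T23, 9.72% in H2-T22 and 0 in B2m. With H2-Q6 and H2-Q7 counted as a single gene, the log2 fold change was 1.81 (SE 0.049, adjusted p = 8.6e-10 in edgeR's test), between those of the separate genes. A transcript of H2-Q7 that keeps an intron (4209 bases) held 37.5% of the estimated reads of that gene in WT and 34.8% in FI3OE cultures. A fit of coding transcripts alone gave a log2 fold change of 1.70 for H2-Q7, close to that of the whole gene.

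In the T region, H2-T23 encodes Qa-1, a ligand of the NK cell receptor CD94/NKG2A, and H2-T22 encodes a ligand of some gamma-delta T cells. H2-T22 was at 224, 236 and 235 CPM in WT and at 582, 637 and 569.6 CPM in FI3OE, a log2 fold change of 1.38 (SE 0.050, adjusted p = 4.5e-09 in edgeR's test). H2-T23 was at 228, 239 and 225 CPM in WT and at 536, 585 and 533 CPM in FI3OE, a log2 fold change of 1.28 (SE 0.047, adjusted p = 5.33e-09). Both values were above those of the classical heavy chains, a difference that was not tested. H2-T22 shares 55.0% of its 31-base words with H2-T10, a gene not analysed here, so its value may include reads of H2-T10. In the same way, H2-Q7 shares 29.1% and H2-Q6 12.9% of their words with H2-Q5, and H2-T23 shares 25.45% with H2-T-ps and 13.04% with H2-Bl. These genes were not analysed here either, and the values of H2-Q7, H2-Q6 and H2-T23 may include their reads.

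B2m, the light chain that all these heavy chains need, was at 1101, 1066 and 1122 CPM in WT and at 1887, 2034 and 1959 CPM in FI3OE. Its log2 fold change was 0.86 (SE 0.039, adjusted p = 2.01e-08 in edgeR's test), which is below that of 6 of the 7 heavy chains and above that of H2-D1. Per length, in TPM (transcripts scaled to a common total per library), there were 0.427 ± 0.0140 B2m transcripts for each transcript of the 7 heavy chains in WT (SD, n = 3) and 0.392 ± 0.00531 in FI3OE (SD, n = 3). The ranges, 0.410 to 0.435 and 0.386 to 0.395, did not overlap.

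The makeup of heavy chain RNA differed in FI3OE as well as its amount. Summed over 7 heavy chains the level was 5367 ± 214 TPM in WT and 10122 ± 458 TPM in FI3OE (SD, n = 3 each). H2-K1 and H2-D1 together made up 83.2% of it in WT and 77.2% in FI3OE, with ranges of 83.1% to 83.3% and 76.7% to 78.1%. The Q region share was 4.97% ± 0.138 in WT and 7.94% ± 0.344 in FI3OE, and the T region share was 11.8% and 14.9%. In none of the 3 shares did WT and FI3OE libraries overlap, so heavy chain RNA of FI3OE cultures held more of the non-classical genes, although the classical genes still led. These shares were computed from the same libraries as the fold changes above and were not tested separately.

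**Figure D2:**
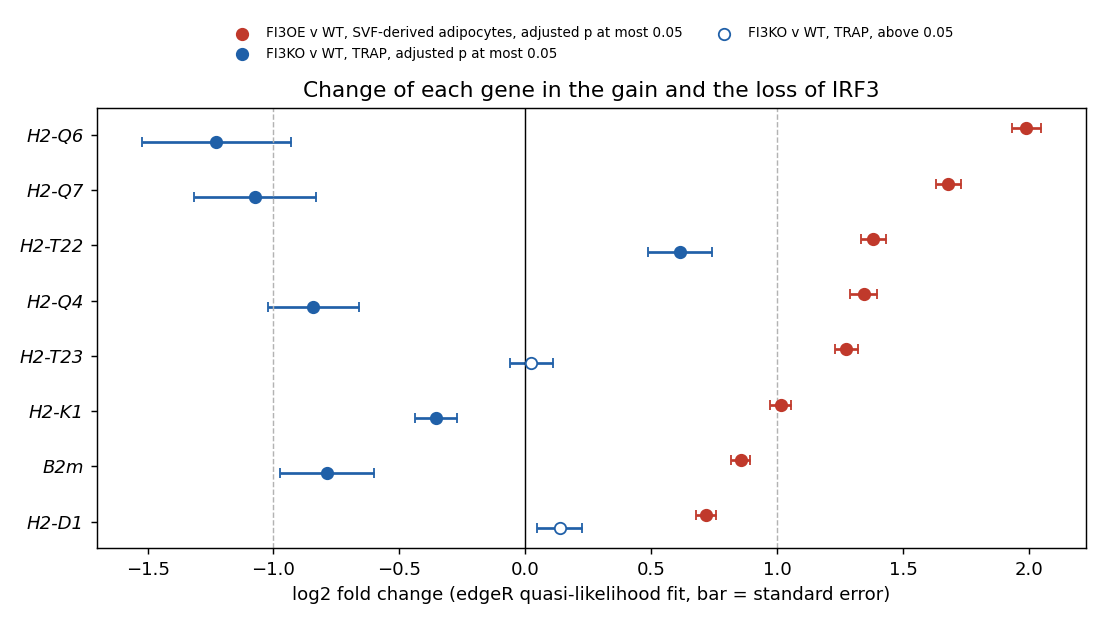
Log2 fold change of each class I gene from edgeR, with bars of 1 standard error, for FI3OE against WT SVF-derived adipocytes and FI3KO against WT TRAP, with lines at 0 and at the cutoffs of 1 and -1 and open points where the adjusted p was above 0.05. All 8 values are above 0 in FI3OE, while in FI3KO 5 genes fell, H2-T22 rose, and H2-D1 and H2-T23 did not pass the test.

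The second comparison asked what happens to class I RNA on adipocyte ribosomes when Irf3 is deleted. H2-Q6, H2-Q7, H2-Q4, B2m and H2-K1 fell in FI3KO, by 1.23 on the log2 scale for H2-Q6 and by 0.35 for H2-K1. H2-T22 rose, and H2-D1 and H2-T23 did not pass the test. By adjusted p, 5 of 8 members were lower, against 18.3% of the 13624 genes tested, and 1 was higher, against 19.1%. With the fold-change cutoff, 2 members (H2-Q6 and H2-Q7) were lower, against 4.87% of all genes. The groups separated downward for 1 member, H2-K1, against 9.82% of all genes, and upward for 0, against 5.39%. The median log2 fold change of the members was -0.57, beside 0.02 over all genes tested. These values are shares of the RNA pulled down. A change in the RNA of a gene and a change in its loading on ribosomes cannot be told apart here. Nor can a shift in which cells carry the tagged ribosome, and RNA of other cells that came down with the beads is included.

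The 2 classical heavy chains differed in this contrast. H2-K1 was at 955 CPM (lowest), 1032 CPM (median) and 1348 CPM (highest) in WT, and at 752, 803 and 859 CPM in FI3KO. Every FI3KO library was below every WT library, and the log2 fold change was -0.35 (SE 0.083, adjusted p = 0.00579 in edgeR's test). H2-D1 was at 1224, 1326 and 1571 CPM in WT and at 1233, 1427.5 and 1665 CPM in FI3KO. These groups overlapped over nearly their whole range, with a log2 fold change of 0.14 (SE 0.090, adjusted p = 0.252).

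All Q region genes were lower in FI3KO. H2-Q4 was at 37.6, 61.1 and 81.1 CPM (lowest, median and highest) in WT and at 25.6, 29.6 and 42.0 CPM in FI3KO, with 5 of 6 FI3KO libraries below all WT libraries and a log2 fold change of -0.84 (SE 0.181, adjusted p = 0.00348 in edgeR's test). H2-Q7 was at 8.89, 14.0 and 20.2 CPM in WT and at 4.14, 5.62 and 9.70 CPM in FI3KO, again with 5 of 6 below, and its log2 fold change was -1.07 (SE 0.242, adjusted p = 0.00459). In these libraries the transcript that keeps an intron held 53.8% of the reads of the gene in WT and 61.0% in FI3KO, and coding transcripts alone gave -1.39. H2-Q6 was at 5.51, 9.12 and 15.9 CPM in WT and at 2.29, 3.65 and 5.70 CPM in FI3KO, with 4 of 6 below all WT libraries and a log2 fold change of -1.23 (SE 0.296, adjusted p = 0.00658). It is the member with the fewest reads, 74 to 182 in FI3KO libraries. Summed, H2-Q6 and H2-Q7 had a log2 fold change of -1.13 (SE 0.260, adjusted p = 0.00492).

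H2-T22 was the 1 member that rose past the test in FI3KO. It was at 62.0, 73.3 and 96.6 CPM in WT and at 91.4, 118 and 128 CPM in FI3KO, with 5 of 6 FI3KO libraries above all WT libraries and a log2 fold change of 0.61 (SE 0.127, adjusted p = 0.00285 in edgeR's test). It rose in FI3OE cultures and rose in FI3KO TRAP, each relative to its own WT. H2-T23, its neighbour on chromosome 17, was at 32.2, 35.3 and 40.7 CPM in WT and at 29.3, 35.3 and 41.5 CPM in FI3KO. Its log2 fold change was 0.02 (SE 0.084, adjusted p = 0.844), and the sign turned to -0.021 when libraries were scaled by their total reads alone.

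B2m was at 868, 1198 and 1454 CPM in WT and at 346, 686 and 915 CPM in FI3KO. It was below all WT libraries in 5 of 6 FI3KO libraries, with FI3KO replicate 1 far lowest, and the log2 fold change was -0.79 (SE 0.187, adjusted p = 0.00608 in edgeR's test). Per length, the number of B2m transcripts for each heavy chain transcript was 0.640 ± 0.159 in WT and 0.411 ± 0.118 in FI3KO (SD, n = 6 each), with ranges of 0.389 to 0.822 and 0.204 to 0.537 that overlap. Summed heavy chain RNA was 4163 ± 376 TPM in WT and 3644 ± 236 TPM in FI3KO, of which H2-K1 and H2-D1 made up 93.6% and 92.9%. The Q region share was 2.56% ± 0.590 and 1.42% ± 0.238, and the T region share was 3.89% and 5.64%.

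The TRAP libraries did not behave alike. Replicates 1 and 2 differed from replicates 3 to 6 over many genes, in a split that the labels do not describe and that was known from earlier results of these data. For the Q region genes and H2-T22, WT replicates 1 and 2 lay at the FI3KO end of the WT range. H2-Q4 was at 37.6 and 40.5 CPM in WT replicates 1 and 2 and between 60.7 and 81.1 CPM in WT replicates 3 to 6, while FI3KO replicates 1 and 2 were at 42.0 and 30.2 CPM and FI3KO replicates 3 to 6 between 25.6 and 32.5 CPM. H2-T22 was at 95.7 and 96.6 CPM in WT replicates 1 and 2 and between 62.0 and 75.4 CPM in WT replicates 3 to 6.

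The comparison was therefore also made within each set. In replicates 3 to 6, 5 members were lower, against 24.8% of all genes, and 1 was higher, against 25.7%. Their log2 fold changes were -1.84 for H2-Q6, -1.63 for H2-Q7, -1.20 for H2-Q4, -0.54 for B2m, -0.43 for H2-K1 and 0.88 for H2-T22. In replicates 1 and 2, with 2 libraries a group, 0 members were lower, against 1.98% of all genes, and 0 were higher, against 1.58%. There the values were -0.01 for H2-Q6, -0.01 for H2-Q7, -0.05 for H2-Q4, -0.19 for H2-K1, 0.17 for H2-T22 and -1.29 for B2m (adjusted p = 0.0645). The sign was the same in both sets for these 6 genes. For the Q region genes it is not informative, since their values in replicates 1 and 2 were near 0. These were smaller than their SE, which was 0.151 for H2-Q6, 0.154 for H2-Q7 and 0.179 for H2-Q4.

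The difference between the sets was tested itself, as the interaction of set and genotype in edgeR over all 13624 genes, of which 26.5% passed. It passed for 4 members. The log2 fold change in replicates 3 to 6 minus that in replicates 1 and 2 was -1.82 for H2-Q6 (adjusted p = 0.00507), -1.61 for H2-Q7 (adjusted p = 0.000855), -1.14 for H2-Q4 (adjusted p = 0.00268) and 0.71 for H2-T22 (adjusted p = 0.00445). It did not pass for B2m (0.75, adjusted p = 0.128), H2-K1 (-0.24, adjusted p = 0.292), H2-D1 (0.06, adjusted p = 0.847) or H2-T23 (0.12, adjusted p = 0.649). For these 4 genes that is not evidence that the sets were alike.

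**Figure D3:**
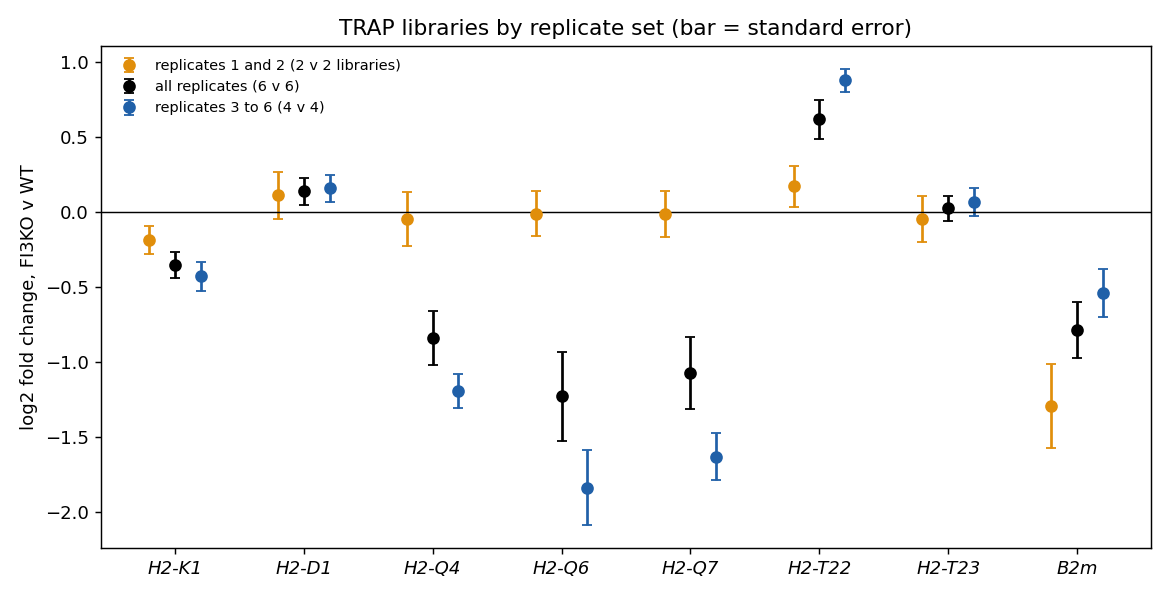
Log2 fold change of each class I gene in FI3KO against WT TRAP from edgeR, with bars of 1 standard error, fitted in replicates 1 and 2 (2 against 2 libraries), in all replicates (6 against 6) and in replicates 3 to 6 (4 against 4). H2-Q4, H2-Q6 and H2-Q7 lie near 0 in replicates 1 and 2 and at -1.20 to -1.84 in replicates 3 to 6.

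Markers of other cells moved in the same libraries. Summed macrophage marker genes were at 34.0 and 36.1 CPM in WT replicates 1 and 2, between 67.1 and 99.5 CPM in WT replicates 3 to 6, at 33.9 and 45.4 CPM in FI3KO replicates 1 and 2, and between 15.1 and 17.6 CPM in FI3KO replicates 3 to 6. Of 13 macrophage genes tested, 11 were lower and 1 was higher in FI3KO, against 18.3% and 19.1% of all genes, and none was at 0 in a whole group. Preadipocyte and fibroblast markers summed to 569.8 to 578 CPM in WT replicates 1 and 2 and 1067 to 1548 CPM in WT replicates 3 to 6. In FI3KO they summed to 513 to 585 CPM in replicates 1 and 2 and 211 to 338 CPM in replicates 3 to 6. Of 9 such genes tested, 3 were lower and 1 was higher in FI3KO by adjusted p. The adipocyte sum was 42750 to 43220 CPM in WT and 35034 to 36549 CPM in FI3KO replicates 1 and 2, and 38712 to 44517 CPM and 38973 to 39979 CPM in replicates 3 to 6, with 5 of 12 adipocyte genes higher and 1 lower in FI3KO. H2-Q6 and H2-Q7 stood in the same order as the macrophage sum and as the preadipocyte and fibroblast sum. All of these were highest in WT replicates 3 to 6 and lowest in FI3KO replicates 3 to 6. H2-Q4 stood in this order too but for an overlap at its low end, and H2-T22 stood in the opposite order. Class I genes are also transcribed in these cells, and their part in the TRAP results was not tested. In the cultures, marker sums also differed without overlap. The preadipocyte and fibroblast sum was 8262 to 8490.3 CPM in WT and 8793 to 9013 CPM in FI3OE, with 2 of 9 genes higher and 2 lower. The adipocyte sum was 12872 to 13012 CPM in WT and 12019 to 12077 CPM in FI3OE, with 3 of 12 genes higher and 7 lower. The macrophage sum was slightly lower in FI3OE, with 4 of 16 genes higher and 3 lower. These counts are by adjusted p, against 20.2% of all genes higher and 16.8% lower. The part of these cells in the class I values of the cultures was not tested.

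Baseline levels were compared between genes per length, in TPM, within each WT group. In WT cultures the order was H2-K1 at 2703 ± 121 TPM, B2m at 2287 ± 19.7, H2-D1 at 1764 ± 59.99, H2-T23 at 359 ± 16.6, H2-T22 at 274 ± 12.4, H2-Q7 at 119.6 ± 0.487, H2-Q4 at 98.9 ± 4.19 and H2-Q6 at 47.8 ± 3.38 TPM (SD, n = 3). No neighbours in this order overlapped between libraries. H2-K1 was at the 99.9th percentile of detected genes and H2-Q6 at the 84.6th in RNA of the whole cultures, which includes the macrophage and preadipocyte markers given above.

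In WT TRAP the order was B2m at 2621 ± 488 TPM, H2-K1 at 2194 ± 283, H2-D1 at 1701 ± 131, H2-T22 at 99.97 ± 20.2, H2-Q4 at 79.0 ± 20.97, H2-T23 at 61.1 ± 4.09, H2-Q7 at 18.1 ± 4.79 and H2-Q6 at 9.89 ± 3.68 TPM (SD, n = 6). Here B2m overlapped H2-K1, H2-T22 overlapped H2-Q4, H2-Q4 overlapped H2-T23 and H2-Q7 overlapped H2-Q6 when the ranges over libraries are compared. Within libraries, H2-Q7 was nonetheless above H2-Q6 in 6 of 6, while B2m was above H2-K1 in 4 of 6, H2-T22 above H2-Q4 in 3 of 6 and H2-Q4 above H2-T23 in 4 of 6. In both groups H2-K1, H2-D1 and B2m stood apart from the 5 non-classical genes. H2-T23, H2-Q7 and H2-Q6 made up 4.69%, 1.56% and 0.624% of the members' TPM in WT cultures and 0.901%, 0.267% and 0.146% in WT TRAP. H2-T22 made up 3.58% in WT cultures and 1.47% in WT TRAP, and H2-Q4 1.29% and 1.17%. Cultures and TRAP differ in depot, diet and method, so these levels are set side by side and were not tested.

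**Figure D4:**
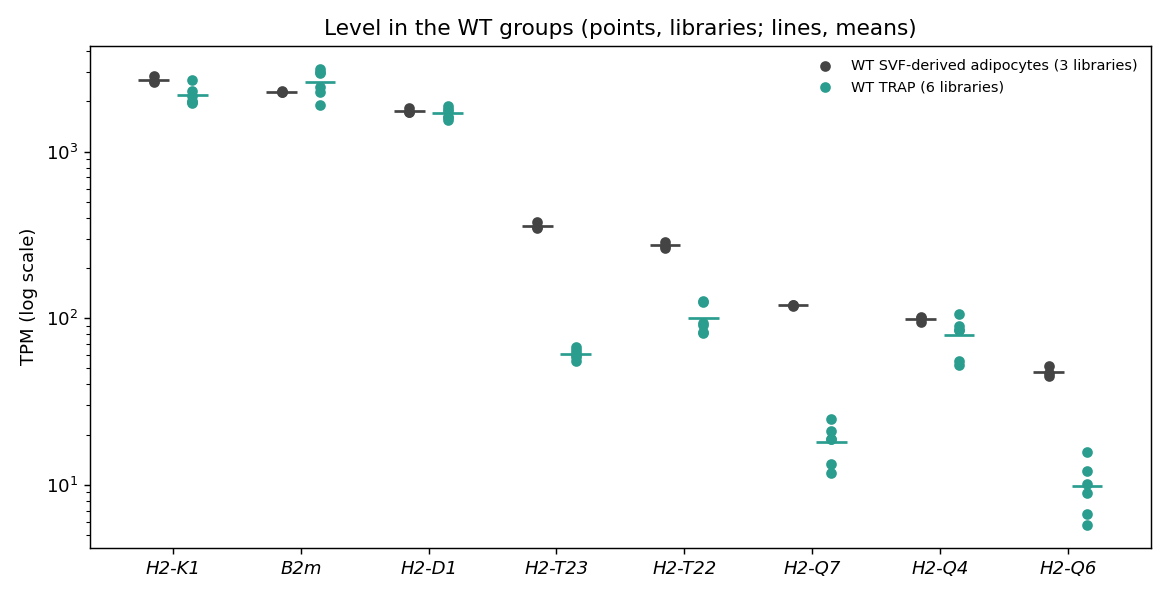
Level of each class I gene in WT SVF-derived adipocytes (3 libraries) and WT TRAP (6 libraries) in TPM on a log axis, with points for libraries and bars for means. The means of H2-K1, B2m and H2-D1 lie between 1701 and 2703 TPM in both groups, and the lowest gene in both is H2-Q6, at 47.8 and 9.89 TPM.

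Genes that supply and load class I peptides moved with the heavy chains in FI3OE. Of 13 tested, 10 were higher by adjusted p, against 20.2% of all genes, 3 were lower, against 16.8%, and 4 were higher past both cutoffs, against 1.99%. The median log2 fold change of this list was 0.80. The immunoproteasome subunits Psmb8 (1.32, SE 0.055), Psmb9 (1.31, SE 0.056) and Psmb10 (1.05, SE 0.045), which cut peptides, and Tap1 (1.12, SE 0.057), a subunit of the peptide transporter, were the 4 past both cutoffs. Tap2, the other subunit, rose by 0.79 and tapasin (Tapbp), which holds empty class I molecules at the transporter, by 0.80. The 3 that fell were general chaperones of the endoplasmic reticulum, Calr (-0.78), Pdia3 (-0.66) and Canx (-0.46), which also fold many other proteins. The smallest rise was that of Erap1 (0.64), which trims peptides to length. These values are log2 fold changes from edgeR, with adjusted p of at most 5.49e-07 for those named here, apart from Canx (adjusted p = 7.53e-06).

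In FI3KO TRAP, 4 of the 13 genes of this list were lower, against 18.3% of all genes, and 0 were higher, against 19.1%, with a median log2 fold change of -0.08. Psmb10 fell by 0.49 (adjusted p = 0.0152), Calr by 0.44 (adjusted p = 0.00590), Psmb8 by 0.43 (adjusted p = 0.0148) and Pdia3 by 0.21 (adjusted p = 0.00423) in edgeR's test. Tap1 had a log2 fold change of -0.15 (adjusted p = 0.0828) and Psmb9 one of 0.25 (adjusted p = 0.115), and neither passed.

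Among 11 regulators of class I transcription, 5 rose in FI3OE, against 20.2% of all genes (median of the list 0.11). Among them were Stat2 (0.83) and Irf9 (0.63), which carry the interferon signal, Nlrc5 (0.64) and Irf1 (0.64). Nlrc5, the class I transactivator, was at 82.5 to 86.2 CPM in WT and 129 to 131 CPM in FI3OE cultures. In TRAP it was at 60.2 to 69.9 CPM in WT and 43.0 to 52.8 CPM in FI3KO, with a log2 fold change of -0.39 (SE 0.060, adjusted p = 0.000524). Its groups did not overlap in either experiment, as for 24.1% of all genes upward in the cultures and 9.82% downward in TRAP. Of the 11 regulators Nlrc5 was the 1 that fell in FI3KO. Irf1 rose there by 0.21 (adjusted p = 0.0132) and the other 9 did not pass, so 1 regulator was lower and 1 higher, below the shares of all genes of 18.3% and 19.1%.

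Other class I and class I-like genes were mixed. In FI3OE, 4 of 7 tested rose, against 20.2% of all genes, and 2 fell, against 16.8%, from 0.79 for Cd1d1, which presents lipids to NKT cells, to -0.30 for Hfe, which takes part in iron regulation. In FI3KO, 3 of 7 fell (Hfe -0.88, H2-T24 -0.66 and Cd1d1 -0.30) and 2 rose (H2-Q10 0.89 and Fcgrt 0.80), against 18.3% of all genes lower and 19.1% higher. Class II genes are expressed by professional antigen-presenting cells, and of 5 tested in FI3OE 1 passed, H2-Ab1 (16.8% of all genes were lower), with a log2 fold change of -0.84 (adjusted p = 0.0381). H2-DMa (0.31, adjusted p = 0.0755) and H2-DMb1 (0.34, adjusted p = 0.0904) did not pass. For both, every FI3OE library was above every WT library, as was the case for 24.1% of all genes. In FI3KO TRAP all 7 class II genes tested fell, against 18.3% of all genes, from -0.996 for H2-DMa to -2.69 for H2-DMb1, beside the lower macrophage markers given above. Most had few reads. Apart from H2-DMb1 (36.1 CPM) and Cd74 (13.3 CPM), their means in WT TRAP ran from 2.18 CPM for H2-DMa to 5.54 CPM for H2-Aa. Summed dendritic cell markers were at 17.2 to 23.6 CPM in WT and 11.7 to 16.3 CPM in FI3KO TRAP, and at 19.2 to 20.9 CPM in WT and 11.7 to 14.9 CPM in FI3OE cultures. Of the 2 dendritic cell genes tested in FI3KO, 1 was lower and 1 was higher by adjusted p. The part of these cells in the class II values was not tested.

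**Figure D5:**
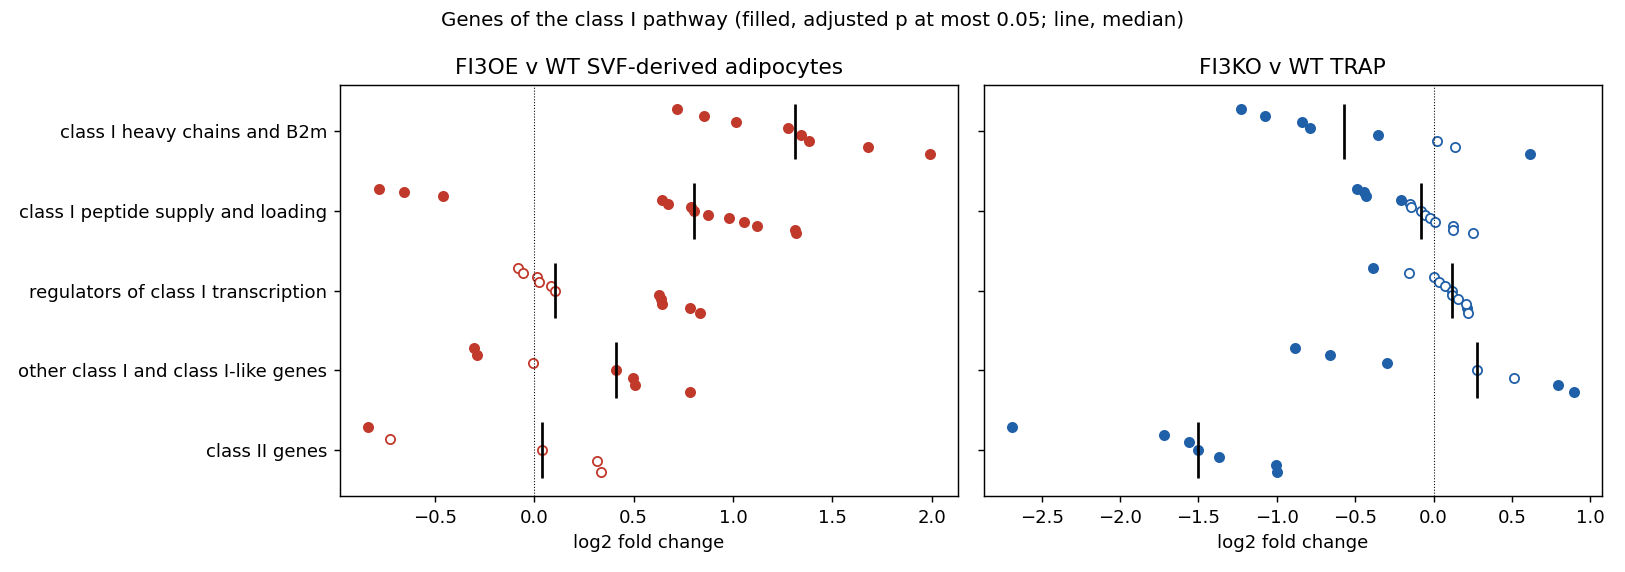
Log2 fold change from edgeR of the class I members and of the genes tested in 4 related lists (peptide supply and loading, regulators, other class I and class II genes), with a point for each gene (filled where the adjusted p was at most 0.05) and a line at each list's median, in FI3OE against WT SVF-derived adipocytes and FI3KO against WT TRAP. Of 13 loading genes 10 are above 0 in FI3OE, with Psmb8 highest at 1.32, and the 7 class II genes tested are all below 0 in FI3KO.

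The genes whose pattern was most like that of the class I members were found among 8854 genes, those whose log2 CPM averaged 3 or more, by the root mean square difference of log2 CPM over 18 libraries, after centring each gene on its mean in each experiment. The 5 nearest to the members' mean pattern were Trim30a (0.129), Ccng1 (0.135), Dcxr (0.136), Rhod (0.153) and Lgals3bp (0.159). Trim30a had log2 fold changes of 1.34 in FI3OE and -0.31 in FI3KO (adjusted p = 0.105), and Dcxr 1.24 and -0.39. The members themselves ranged from 0.118 for H2-K1 to 0.4995 for H2-Q6 on this measure, so 7 of the 8 lay farther from their own mean pattern than these genes did. This likeness uses the same libraries as the fold changes and is a description with no test.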

How the data were processed

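RNA-seq of 18 libraries was used. Per the labels and the study's methods, the authors removed ribosomal RNA, built unstranded Nextera XT libraries, trimmed reads with fastp and quantified them with Salmon 1.4.0 on GENCODE transcripts of GRCm38, with correction for sequence and GC bias. The deposited tables hold Salmon's estimated counts, which are not whole numbers, and TPM for 118733 transcripts. Salmon divides reads between similar transcripts by estimation, which bears on near-identical class I genes.

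Here these estimated counts were summed by gene, using a map from GENCODE M21 that matched 117850 transcripts (99.26%), and rounded. Unmatched transcripts held 0.37% to 1.08% of reads. Each experiment was fitted on its own with edgeR 4.0.16 in R 4.3.3 (filterByExpr, TMM, quasi-likelihood test, Benjamini-Hochberg adjustment over all genes tested), without covariates, with the study's cutoffs (adjusted p no higher than 0.05, log2 fold change of 1 or more in either direction). CPM was computed from a library's total count. DESeq2 1.42.0, other scalings and filters, coding transcripts alone, the replicate number as a block, replicate sets and each library left out were alternatives, and averaging WT TRAP replicates 1 and 2 was added after seeing the data. The fit was tested on simulated data. Tables were made in Python 3.11.15.

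The members and lists were chosen with earlier results of these data known. The genes named by rule were the 8 members, Irf3, the largest and smallest log2 fold change past the adjusted p in each list, and the 5 genes of most similar pattern. Other pathway genes were named after their values were seen. H2-Q5, H2-Q8, H2-Q9, H2-T9, H2-T10 and H2-Bl were not analysed here.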

Additional observations from a re-analysis of the deposited data

Results flagged for a closer look

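In TRAP the FI3KO effect differed between replicates 3 to 6 and replicates 1 and 2 by a test of the difference itself. That difference in log2 fold change was -1.82 for H2-Q6, -1.61 for H2-Q7, -1.14 for H2-Q4 and 0.71 for H2-T22. The labels do not say what sets these replicates apart.

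In WT TRAP, replicate 5 had 1348 CPM of H2-K1, and its gap to the next library was 0.682 of the range of the group. In FI3KO, replicate 2 had 91.4 CPM of H2-T22, with a gap of 0.66 of the range. These are libraries that lie far from the others of their group. In all 18 groups of TRAP values were examined in this way, of which chance marks about 1 in 20.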

How the results depend on the processing

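In FI3OE all 8 members passed the adjusted p in every alternative run for them, and the number past both cutoffs was 6, or 5 where H2-K1 came to just under the fold-change cutoff. Leaving out single libraries gave 5 to 6 members and 4 to 5 of the listed pathway genes (4 with all libraries). With the adjusted p alone the pathway count was 25, beside 5960 of all 16105 genes. In the 4 related lists 13, 11, 7 and 5 genes were tested in FI3OE. In FI3KO the members past both cutoffs were 2, between 1 and 2 when single libraries were left out (1 without WT replicate 5 or without FI3KO replicate 4, where H2-Q7 had -0.93 and -0.97), 0 in replicates 1 and 2 only, 3 in replicates 3 to 6 only and 6 by adjusted p alone. Over all genes, 1314 of 13692 were lower past both cutoffs in replicates 3 to 6 only. In the fit of all replicates 5095 of 13624 genes passed the adjusted p. The pathway count covers the 4 related lists, class II included, with 13, 11, 7 and 7 genes tested in FI3KO. In FI3KO it was 6, all of them class II genes and all lower, against 4.87% of all genes. That count became 5 to 7 without single libraries, 1 in replicates 1 and 2 only and 18 by adjusted p alone. Over all genes, 191 of 14040 were past both cutoffs in replicates 1 and 2 only. The 18 stand beside the 5095 of 13624 genes that passed the adjusted p. The 6 members called in FI3KO lost the call in replicates 1 and 2 only and kept it in the other alternatives. H2-T23 turned sign, to -0.021 with total reads and -0.049 in replicates 1 and 2 only, and ranged from -0.018 to 0.063 without single libraries. Irf3, at -0.35 in FI3KO, turned to 0.71 with the offset for transcript length. It did not pass the adjusted p with coding transcripts only (-0.09), with the replicate block (-0.36) or in replicates 1 and 2 only (-0.18). With coding transcripts only, shares of the members' TPM in WT cultures were 23.3% for H2-D1, 1.41% for H2-Q7 and 1.15% for H2-Q4. The cause of these moves was not tested.

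The replicate numbers did not pair the libraries (correlations of deviations from -0.465 to 0.093 in TRAP and from -0.067 to -0.017 in SVF). With the replicate block, 6 members in FI3OE and 2 in FI3KO were past both cutoffs, and over all genes 579 and 736, against 583 and 901 without it. WT TRAP replicates 1 and 2 were closer than other pairs (chi-square per degree of freedom 2.54, against 8.41 to 129.9), yet above sampling noise, and were kept as separate libraries. Averaged as 1 sample, all 6 calls held. H2-Q6, at 74 to 182 reads in FI3KO, is the member that depth limits most.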

Other observations

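By CPM, single libraries stood out for many of the members at once. FI3OE replicate 2 was the highest FI3OE library for 8 of the 8 genes. Among WT TRAP libraries, replicate 5 was the highest for 6 members, namely H2-K1, H2-D1, H2-Q4, H2-Q6, H2-Q7 and H2-T23, and the lowest for B2m, at 868 CPM. In FI3KO, replicate 1 was the highest for 5 members, H2-K1, H2-D1, H2-Q4, H2-Q6 and H2-Q7, and the lowest for B2m, at 346 CPM. Per length, these libraries held 0.389 and 0.204 B2m transcripts per heavy chain transcript, the lowest ratio of their groups. By TPM, FI3KO replicate 1 was not the highest for H2-K1, H2-D1 or H2-Q6. This was noticed in the data and carries no test.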
